A study of Arabidopsis thaliana with 2 samples.

Results

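The mitochondrial and chloroplast genomes contributed 547 of the 56731 genomic bins that the authors listed as differing between Col-0 and miP1a-OX seedlings, 477 of them mitochondrial and 70 of chloroplast origin. The bins were chosen by their chromosome name alone, and the methylation level of a bin is the share of its cytosine calls that were read as methylated. The study used whole-genome bisulfite sequencing to ask how the microProtein miP1a, a small repressor of flowering that acts with CONSTANS and TOPLESS, alters the methylome. Genomic DNA came from whole untreated seedlings aged 12 days, with 1 library of Col-0, the wild type, and 1 library of miP1a-OX, the line 35S::FLAG-miP1a, in which a constitutive viral promoter drives the tagged microProtein in most tissues. The methods describe MS plates in long days, whereas the sample records describe soil. Whether the overexpressor is a single transgenic line or several was not given in the sources used here. With 1 library per genotype there was no replicate check, so each value below compares these libraries and not the genotypes.

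Plant mitochondria and plastids carry many copies of their own genome per cell, and this DNA essentially lacks cytosine methylation. Bisulfite converts unmethylated cytosines, which are then read as T, so cytosines that remain in chloroplast reads are commonly used to gauge how complete the conversion was. Plant nuclear chromosomes also hold inserted stretches of organelle DNA, called NUMTs when mitochondrial and NUPTs when of plastid origin, and these copies are usually methylated and can share reads with the organelle genomes. In bulk seedlings the number of organelle genomes per cell and the number of reads that were assigned to them cannot be told apart.

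The 6 chloroplast bins printed first are picked examples that include bins higher in miP1a-OX, whereas 52 of the 70 listed chloroplast bins were lower. The sequences come from the TAIR10.1 plus strand, with C and G in capitals. Each C, or each G as the C of the other strand, is a position where a call can be made. The first lies between psbZ and trnG and had the highest Col-0 level of the chloroplast bins, with 9 cytosines in all. The second lies 37 bases from trnP and fell in miP1a-OX, the third holds part of trnD and had the most calls, and the fourth lies in psbD and had the largest increase among bins with at least 1000 calls. The last 2 lie in the inverted repeat, in ycf1 and between ycf1 and trnN, and had the largest increases of all.

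psbZ-trnG spacer, chrC:36301-36399: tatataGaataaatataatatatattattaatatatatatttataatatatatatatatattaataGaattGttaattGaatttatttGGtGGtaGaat
trnP-psaJ spacer, chrC:66601-66699: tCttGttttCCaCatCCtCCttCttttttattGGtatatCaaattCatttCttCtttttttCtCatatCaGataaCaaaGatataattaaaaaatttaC
trnD, chrC:29801-29899: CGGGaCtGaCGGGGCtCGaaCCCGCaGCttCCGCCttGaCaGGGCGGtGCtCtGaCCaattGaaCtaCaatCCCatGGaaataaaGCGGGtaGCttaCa
psbD, chrC:33401-33499: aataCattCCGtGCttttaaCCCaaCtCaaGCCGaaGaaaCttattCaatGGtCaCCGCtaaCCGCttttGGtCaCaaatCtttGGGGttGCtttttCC
ycf1, chrC:110201-110299: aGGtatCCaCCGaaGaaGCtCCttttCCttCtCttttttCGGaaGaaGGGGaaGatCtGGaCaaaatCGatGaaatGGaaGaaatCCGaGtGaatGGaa
ycf1-trnN spacer, chrC:129301-129399: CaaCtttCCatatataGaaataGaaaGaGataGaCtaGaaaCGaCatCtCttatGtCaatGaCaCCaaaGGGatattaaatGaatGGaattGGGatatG

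The 6 sequences differ widely in how many calls they can give. The psbZ-trnG spacer holds 9 cytosines, all on the minus strand and all in the CHH context, where H is any base but G. The trnD bin holds 56 cytosines, of which 14 are in CG, 14 in CHG and 28 in CHH.

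Both organelles stood far below the nuclear bins in level and far above them in depth. The listed chloroplast bins had a pooled level of 0.290% in Col-0 (2442 of 841713 calls, 95% Clopper-Pearson interval 0.279 to 0.302%) against 0.177% in miP1a-OX (1299 of 733397 calls, 0.168 to 0.187%). The listed mitochondrial bins had 2.69% in Col-0 (37716 of 1403989 calls, 2.66 to 2.71%) against 1.69% in miP1a-OX (29707 of 1758450 calls, 1.67 to 1.71%). The listed nuclear bins had 13.9% and 16.1%. Both organelles were thus lower in miP1a-OX, by 0.997 percentage points in the mitochondrial and 0.113 in the chloroplast bins, whereas the nuclear bins were higher. As a mean over bins that ignores depth, the chloroplast difference turned to 0.186 points higher in miP1a-OX, because the shallow bin between ycf1 and trnN then weighs as much as a deep one. These intervals cover counting error only, and because only bins with a p-value of at most 0.01 are listed, the levels describe those bins and not either organelle genome as a whole.

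The ratio of the pooled levels was similar in both organelles, although within the chloroplast it differed with the number of cytosines per bin, as described below. The Col-0 level was 1.59 times the miP1a-OX level in the mitochondrial bins and 1.64 times in the chloroplast bins. The calls moved in opposite directions: the miP1a-OX library had 1.25 times the calls of Col-0 in the mitochondrial bins and 0.871 times in the chloroplast bins. Methylated calls were fewer in miP1a-OX in both, at 0.788 times and 0.532 times the Col-0 number.

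Most organelle bins were lower in miP1a-OX. Of the mitochondrial bins 392 were lower and 85 higher, and of the chloroplast bins 52 were lower and 18 higher, while over all listed bins 36.4% were lower and 63.6% higher. The share of higher bins was thus 17.8% in the mitochondrial genome, 25.7% in the chloroplast and 64.0% in the nuclear genome. No test was made over bins, because the bins were listed by the same contrast and neighbouring bins share reads. When methylated calls worth 1 DNA fragment, equal in number to 0.5 of the bin's cytosines, were taken from the higher library, 149 mitochondrial bins (16.1% higher) and 6 chloroplast bins (0 higher) kept p of at most 0.01 by Fisher's exact test. Bins with more cytosines lost more calls in this step.

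**Figure D1:**
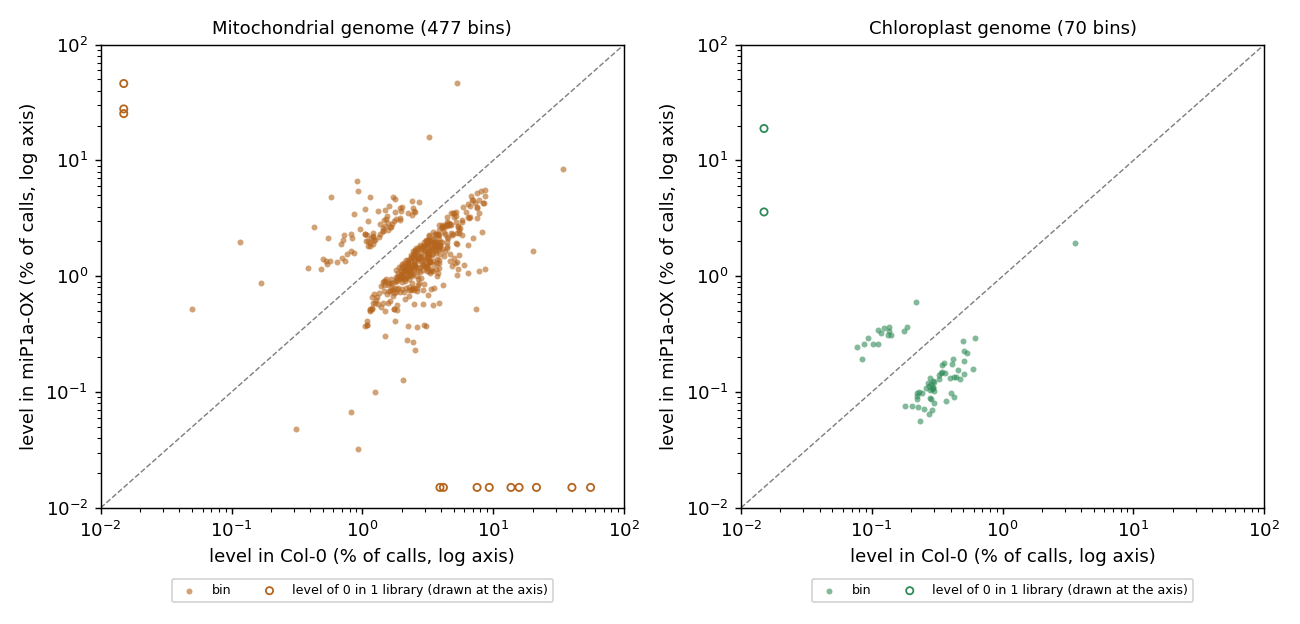
Level of each listed mitochondrial (left) and chloroplast (right) bin in Col-0 (x axis) and miP1a-OX (y axis), in percent of calls on log axes; the dashed line marks equal levels and open circles are bins with a level of 0 in 1 library. Of the bins, 392 of 477 mitochondrial and 52 of 70 chloroplast bins lie below the line.

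The differences were small in points. The median absolute difference was 1.41 points in the mitochondrial bins, 0.195 in the chloroplast bins and 8.03 in the nuclear bins. In the chloroplast 67 of 70 bins differed by less than 1 point, and in the mitochondrial genome 457 of 477 differed by less than 5 points. The smallest difference listed was 0.104 points in the chloroplast and 0.263 in the mitochondrial genome.

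Depth moved with these sizes, in part through the selection, because a bin with few calls is listed only when its difference is large. Fold depth, the calls per covered cytosine summed over both strands, had a median of 835 in Col-0 against 707 in miP1a-OX over the chloroplast bins, 136 and 179 over the mitochondrial bins and 21.9 and 21.6 over the nuclear bins. Relative to the nuclear median, the chloroplast bins were covered 38.2-fold in Col-0 against 32.7-fold in miP1a-OX, and the mitochondrial bins 6.22-fold and 8.26-fold. The mitochondrial bins with fewer than 100 calls in a library, 12 in all, differed by 9.33 to 55.6 points. The 263 with at least 3000 calls in both differed by 0.263 to 3.64 points. Among the chloroplast bins, the 33 with at least 10000 calls differed by 0.104 to 0.361 points. Higher bins were the minority at each depth of the mitochondrial genome: 4 of the 12 bins with fewer than 100 calls, 6 of the 37 with 100 to 1000, 33 of the 165 with 1000 to 3000 and 42 of the 263 with more.

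**Figure D2:**
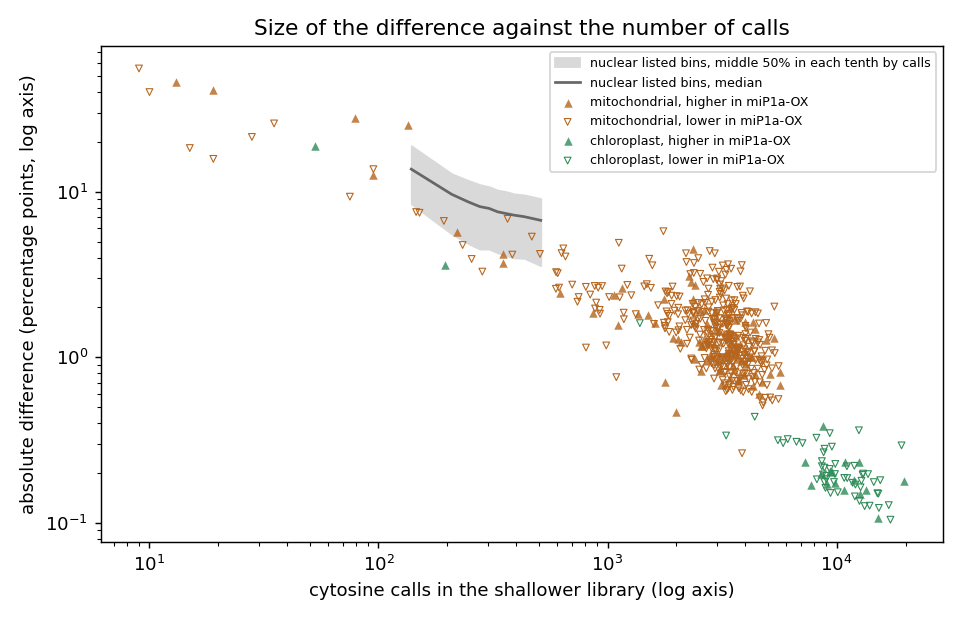
Absolute difference in level (y axis, percentage points, log axis) against the calls of the shallower library (x axis, log axis) for each mitochondrial and chloroplast bin, filled triangles for bins higher in miP1a-OX and open triangles for lower ones; the grey line and band give the median and the middle 50% of the nuclear listed bins. The differences fall with the calls, from 55.6 points in the mitochondrial bin with 9 calls in Col-0 to 0.104 in a chloroplast bin.

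After Benjamini-Hochberg adjustment over all bins of the reference genome, 240 mitochondrial bins (50.3%) and 8 chloroplast bins (11.4%) kept an adjusted p of at most 0.01 by Fisher's exact test (two-sided), against 32.4% of all listed bins. The mitochondrial share lay above and the chloroplast share below that background. Mitochondrial bins also took a larger part of their genome: 477 of the 3669 bins up to the last listed position (13.0%) were listed, against 70 of 1545 chloroplast bins (4.53%) and 4.72% of nuclear bins. The 1545 include the 2 copies of the inverted repeat, which span 262 bins each and had 1 listed bin each.

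Few listed bins of any genome passed the difference of 0.4 by which the study defined a differing region. With 10 or more calls per library, 3 of 477 mitochondrial and 0 of 70 chloroplast bins passed it, beside 228 of all 56731 listed bins (0.402%). Another mitochondrial bin with 9 calls in Col-0 also lies in the authors' merged list. With 50 or more calls per library, 0 organelle bins passed it. All 4 rested on 9 to 45 calls per library at about 2-fold depth. Because both strands are summed, 2-fold is the lowest possible depth and means 1 call per covered cytosine. The bin starting at 118701 had 9 calls on 9 of its 52 cytosines for Col-0, against 12 calls on 12 for miP1a-OX. At 46601, 10 calls fell on 9 of 45 cytosines for Col-0, against 19 on 19 for miP1a-OX. At 140901, 19 calls fell on 19 of 39 cytosines for Col-0, against 45 on all 39 for miP1a-OX. Annotations of all 4 bins are those the authors made with HOMER on TAIR9, and the gene IDs have no names in the sources used here.

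At the bin with the fewest calls, from 118701 to 118799 at the termination site of ATMG00450, 5 of 9 calls were methylated in Col-0 against 0 of 12 in miP1a-OX (p = 0.00619, two-sided Fisher's exact test). A second decrease lay from 46601 to 46699 in an intergenic stretch nearest to ATMG00170, with 4 of 10 calls in Col-0 against 0 of 19 in miP1a-OX, a difference exactly at the threshold. The increases were in exon 2 of 2 of ATMG00513, from 140901 to 140999, with 1 of 19 calls and 21 of 45 calls, and at the termination site of ATMG01160, from 295701 to 295799, with 0 of 19 and 6 of 13 calls. None of the 4 reached an adjusted p of 0.01, with values from 0.0493 to 0.194 (Fisher's exact test, Benjamini-Hochberg). A level of 0 allows up to 25.0% at ATMG00450 and up to 15.8% at the other bins with 19 calls. The largest difference under 0.4 was 27.8 points, in an adjacent pair of bins described next.

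Among mitochondrial bins with 50 or more calls per library, 2 neighbours had the largest increases. From 105401 to 105499, 0 of 222 calls were methylated in Col-0, which allows up to 1.35%, and 34 of 134 in miP1a-OX (25.4%, 95% interval 18.3 to 33.6%). The bin from 105501 to 105599 had 0 of 88 calls in Col-0 against 22 of 79 in miP1a-OX (27.8%). Both bins rose with adjusted p of 5.32e-13 and 4.44e-06 (Fisher's exact test). Their depth was 5.58-fold to 9.25-fold, far under the mitochondrial median. Adjacent bins share reads, and the test counts calls of the same fragment as independent.

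The next increases were smaller. The bin from 253201 to 253299 went from 4 of 123 to 15 of 95 calls, but only 9 of its 46 cytosines were covered. The bin from 130701 to 130799 went from 2 of 220 to 20 of 303 calls. The fifth, from 44401 to 44499, had full mitochondrial depth, with 22 of 2359 calls in Col-0 (0.933%) against 169 of 3103 in miP1a-OX (5.45%). It belonged to a run of 4 adjacent bins from 44201 to 44599 that were all higher in miP1a-OX. Over that run the level was 0.965% in Col-0 (96 of 9946 calls) against 3.41% in miP1a-OX (457 of 13388 calls).

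The largest decreases among bins with at least 50 calls ended at or near 0 in miP1a-OX. From 48201 to 48299, 13 of 95 calls were methylated in Col-0 (13.7%) against 0 of 141 in miP1a-OX. The bins starting at 166501 and 146701 went from 7 of 75 to 0 of 80 calls and from 11 of 146 to 0 of 168 calls. The bin starting at 281401 went from 13 of 151 to 2 of 174 calls, and the bin starting at 318001 from 27 of 366 to 2 of 382 calls. Of these 5 bins, those starting at 48201 and 318001 had an adjusted p of at most 0.01, at 0.000602 and 7.95e-05 (Fisher's exact test).

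High levels occurred in shallow mitochondrial bins in either library. After the bins past 0.4, the highest Col-0 levels were 34.3% at 332801 (12 of 35 calls, against 8 of 95 in miP1a-OX), 21.4% at 273201 (6 of 28, against 0 of 33) and 3 of 15 calls at 180501, against 2 of 122. The bin with the most calls, from 186601 to 186699, had 30 of 5688 calls in Col-0 (0.527%) against 82 of 6113 in miP1a-OX (1.34%). Bins with no methylated call numbered 3 for Col-0 and 9 for miP1a-OX.

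The mitochondrial bins were not spread evenly. In windows of 10 kb, 12 windows held 24 to 48 listed bins each and together 405 of the 477, another 22 windows held 1 to 8, and 3 held none. Grouping listed bins no more than 2000 bases apart, with at least 20 bins a group, gave 4 stretches, a rule chosen after the positions were seen. They ran from 401 to 48299 with 169 bins, from 183501 to 210099 with 111, from 279801 to 290699 with 47 and from 344301 to 366899 with 80. Together they held 85.3% of the listed mitochondrial bins in 29.4% of the span. Inside them 37.7% of all bins were listed, and outside 2.70%.

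Depth and coverage moved with the stretches. The median fold depth of the listed bins was 145 (Col-0) and 184 (miP1a-OX) inside, against 64.2 and 80.1 outside. Each cytosine had a call in 392 of the 407 bins inside in either library, whereas outside that held for 17 of 70 bins in Col-0 against 19 in miP1a-OX. The part of depth in the clustering was not tested, because bins above the p-value threshold, and so their depth, are not used here. The direction was the same inside and outside: the pooled level went from 2.66% to 1.67% inside and from 3.15% to 2.02% outside, and 16.5% and 25.7% of the bins were higher in miP1a-OX.

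**Figure D3:**
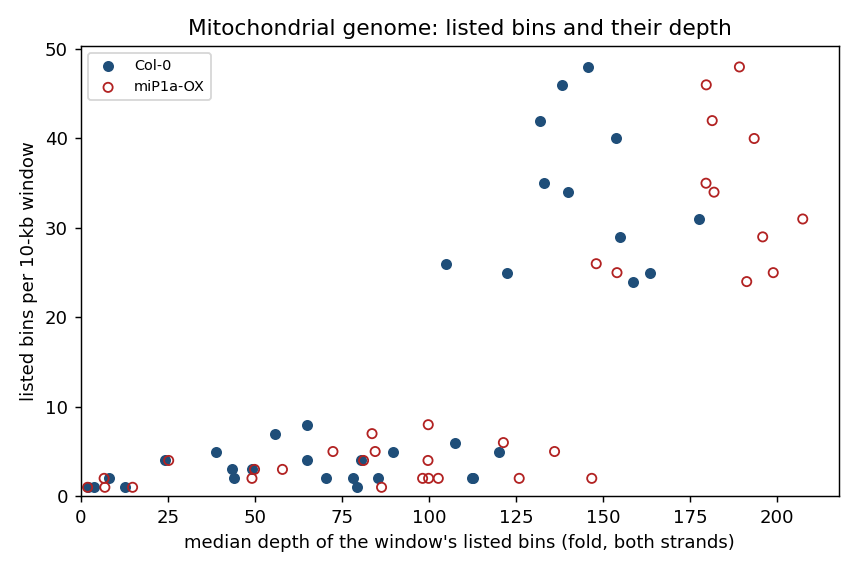
Listed bins per 10-kb window of the mitochondrial genome (y axis) against the median fold depth of those bins (x axis), filled points for Col-0 and open points for miP1a-OX, 1 point per window and library. The 12 windows with at least 24 listed bins have median depths of 105 to 178 in Col-0 and 148 to 207 in miP1a-OX, and the windows with 1 to 8 bins have 2 to 120 and 2 to 147.

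The stretch from 279801 to 290699 stood apart in level. Its 47 bins had 5.23% in Col-0 (6957 of 133014 calls) against 3.29% in miP1a-OX (5815 of 176880 calls). The other 3 stretches had 2.09 to 2.57% in Col-0 and 1.33 to 1.63% in miP1a-OX. Its difference of 1.94 points was likewise the largest of the 4, and 4 of its 47 bins were higher in miP1a-OX. Its median depth, 131-fold and 180-fold, lay just under or within the range of the other stretches.

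Neighbouring mitochondrial bins mostly moved the same way. Since 82.2% of the listed mitochondrial bins were lower in miP1a-OX, many neighbours share that direction by this share alone. Whether the runs go beyond it was not tested. Of the 477 bins, 336 lay in 118 runs of at least 2 adjacent listed bins with the same direction, 107 of them lower and 11 higher in miP1a-OX. All 11 runs of at least 5 bins, with 68 bins in all, were lower. The longest ran over 10 bins from 359301 to 360299, with 888 of 41819 calls in Col-0 (2.12%) against 401 of 47113 in miP1a-OX (0.851%). Runs of 7 bins lay from 18301 to 18999, where the level went from 2.23% to 1.10%, and from 289201 to 289899, where it went from 5.35% to 3.39%. The 4 runs of 6 bins were tied in length. Those from 27901 to 28499 and from 35101 to 35699 went from 3.03% to 1.44% and from 2.76% to 1.11%, and that from 348401 to 348999 from 472 of 21272 to 271 of 27066 calls. The run from 288201 to 288799 went from 6.20% (777 of 12532 calls) to 4.06% (766 of 18876 calls), with nearly as many methylated calls in miP1a-OX as in Col-0. Adjacent bins share reads, so the runs are not independent counts. The chloroplast genome had 6 runs of 2 bins and none longer.

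In the chloroplast genome, 68 of the 70 bins were deep, with 1000 or more calls per library and every cytosine covered. Their levels ran from 0.0766% to 3.56% in Col-0 and from 0.0565% to 1.95% in miP1a-OX. The other 2 bins lay in the inverted repeat, the pair of identical copies of 26264 bases each that holds the ribosomal RNA genes. Each copy, from 84171 to 110434 and from 128215 to 154478, spans 262 bins and had 1 listed bin.

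The inverted-repeat bins were the only chloroplast bins with no methylated call in Col-0, and they had the largest increases. In the spacer between ycf1 and trnN, 0 of 56 calls were methylated in Col-0, which allows up to 5.36%, and 10 of 53 in miP1a-OX (18.9%, 95% interval 9.44 to 32.0%, adjusted p = 0.0231, Fisher's exact test). In the ycf1 annotation between trnN and ndhF, 0 of 227 calls were methylated in Col-0, which allows up to 1.32%. There 7 of 195 calls were methylated in miP1a-OX (3.59%, adjusted p = 0.117, Fisher's exact test). Neither passed an adjusted p of 0.01. Their depth was 5.58-fold to 17.7-fold, against a median of 851-fold and 709-fold in the 68 other bins. Whether reads that fit both repeat copies were kept in the mapping is not given in the sources used here. The other ycf1 annotation, between rps15 and trnN, is the reading frame of an inner-envelope protein linked to protein import. Its listed bins were all lower in miP1a-OX, at 0.497% to 0.276%, 0.281% to 0.131% and 0.409% to 0.174%. None of these reached an adjusted p of 0.01 either (Fisher's exact test).

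The psbZ-trnG spacer shown first had the highest level of the deep chloroplast bins in both libraries. Of 1856 calls in Col-0, 66 were methylated (3.56%, 2.76 to 4.50%), and of 1384 in miP1a-OX, 27 (1.95%, 1.29 to 2.83%). No other deep bin exceeded 0.614% in either library, the Col-0 level of the psaJ-rpl33 spacer, with 52 of 8473 methylated calls in Col-0 against 18 of 6119 in miP1a-OX. Next came the trnK-rps16 spacer, the trnT-psbD spacer with 0.531% in Col-0 and ccsA, a gene of cytochrome c biogenesis, with 0.509%, whose miP1a-OX levels were 0.159%, 0.216% and 0.184%. The psbZ-trnG spacer also had the fewest cytosines, 9 in an otherwise A and T sequence. Its decrease of 1.61 points did not pass the adjustment (adjusted p = 0.174, Fisher's exact test).

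An adjusted p of at most 0.01 was reached by 8 chloroplast bins, and 2 of them were higher in miP1a-OX. The higher ones lay in psbD, which encodes the D2 reaction-centre protein of photosystem II, and in petA, which encodes cytochrome f. In the psbD bin shown above, 19 of 8682 calls were methylated in Col-0 (0.219%) against 54 of 8973 in miP1a-OX (0.602%, adjusted p = 0.00621, Fisher's exact test). The 2 other listed bins of psbD were lower in miP1a-OX, at 0.298% to 0.102% and 0.288% to 0.105%. In petA the counts were 14 of 12588 and 43 of 12515 (0.111% and 0.344%, adjusted p = 0.00691, Fisher's exact test). Neither higher bin was among the 6 that kept p of at most 0.01 by Fisher's exact test after removal of 1 fragment's calls, where 0 were higher. The lowest p of the chloroplast bins belonged to atpB, the beta subunit of ATP synthase, where methylated calls were 82 of 19209 in Col-0 (0.427%) against 26 of 19409 in miP1a-OX (0.134%, p = 3.41e-08, Fisher's exact test).

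The other decreases that passed lay in rps2, in cemA and in 2 spacers. In rps2, a protein of the small ribosomal subunit, 2 adjacent bins went from 64 of 12671 to 18 of 12517 calls and from 42 of 14800 to 12 of 13718 calls. In cemA, which encodes an envelope membrane protein, the level went from 0.251% to 0.0709%. In the trnP-psaJ spacer shown above it went from 51 of 10722 to 12 of 9337 calls (0.476% to 0.129%), and in the atpH-atpI spacer from 47 of 12649 to 8 of 9538 calls (0.372% to 0.0839%). A larger decrease in points that did not pass lay in the trnK-rps16 spacer, from 0.596% to 0.159%. The trnH-psbA spacer went from 0.427% to 0.0911% and did not pass either.

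Listed chloroplast bins touched 34 of the 108 gene names annotated in TAIR10.1. By placement, 40 bins lay in coding exons, 4 in RNA genes, 8 in introns and 18 between genes, and most bins of each class were lower in miP1a-OX (27, 3, 7 and 15 bins). For genes of the light reactions, 5 of 15 photosystem II genes had a listed bin, with 2 bins higher and 5 lower. The second higher one lay in psbC, the CP43 antenna protein, which went from 15 of 11029 to 40 of 10899 calls. A bin in psbA, the D1 protein, went from 0.241% to 0.0973%. Photosystem I had 1 of 5 genes with a listed bin, psaB, a core subunit, which went from 0.0879% to 0.260%. Cytochrome b6f had 1 of 6, the petA bin above.

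Among genes of carbon fixation and energy conversion, rbcL, the large subunit of Rubisco, had 2 adjacent bins that were both higher in miP1a-OX. Together they had 24 of 18901 methylated calls in Col-0 (0.127%) against 66 of 20002 in miP1a-OX (0.330%). The ATP synthase genes atpB, atpE and atpF had 1 higher and 3 lower bins among them, the higher one in atpE, which went from 0.132% to 0.312%. Of the NADH dehydrogenase-like complex, which takes part in cyclic electron flow, 5 of 11 genes had a bin, with ndhK higher and ndhA, ndhD, ndhF and ndhI lower. In accD, a subunit of acetyl-CoA carboxylase for fatty acid synthesis, the level went from 0.325% to 0.139%.

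For genes of expression, the plastid-encoded RNA polymerase had 3 of 4 genes with 8 bins, of which 3 were higher and 5 lower. The higher bins were an adjacent pair in rpoC2, from 17 of 15788 to 55 of 17132 calls, and a bin in rpoB, from 0.0846% to 0.191%. None of these higher bins reached an adjusted p of 0.01 (0.101 and 0.122 in rpoC2, 0.206 in rpoB, Fisher's exact test). The 2 other listed bins of rpoC2 were lower, at 0.344% to 0.170% and 0.270% to 0.119%. Ribosomal protein genes had 7 bins in rps2, rpl14, rpl16 and rpl22, all 7 lower in miP1a-OX. Transfer RNA genes had 4 bins. The trnD bin, which had the most calls of the chloroplast bins and the most cytosines, was higher, with 39 of 20988 calls in Col-0 (0.186%) against 72 of 19741 in miP1a-OX (0.365%), and those of trnG, trnH and trnP were lower. The 3 ribosomal RNA genes with a symbol, which lie in the inverted repeat, had no listed bin.

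The direction of the deep chloroplast bins went with the number of cytosines in the bin. The 16 bins higher in miP1a-OX held 29 to 56 cytosines, and the 52 lower ones held 9 to 51. All 29 bins with fewer than 28 cytosines were lower, a division chosen after the values were seen, and their pooled level went from 0.377% to 0.146%. Of the 39 bins with more, 16 were higher, and the pooled level went from 0.231% to 0.192%. Across the 68 bins the number of cytosines had a Spearman rho of 0.56 (Pearson r = 0.55) with the difference, −0.53 with the Col-0 level and 0.18 with the miP1a-OX level. These are descriptions over bins of the same 2 libraries, so no p is given.

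Depth moved with the same property. The ratio of miP1a-OX to Col-0 depth had a Spearman rho of 0.83 (Pearson r = 0.81) with the number of cytosines. In the 23 bins with the fewest cytosines, 9 to 25, the median ratio was 0.750 and 0 bins were higher in miP1a-OX. In the 22 middle bins the ratio was 0.851 and 5 were higher, and in the 23 bins with the most, 38 to 56, it was 0.988 and 11 were higher. Bins poor in C and G were thus covered less in miP1a-OX than in Col-0, and bins rich in them about equally. The part of this in the levels was not tested.

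**Figure D4:**
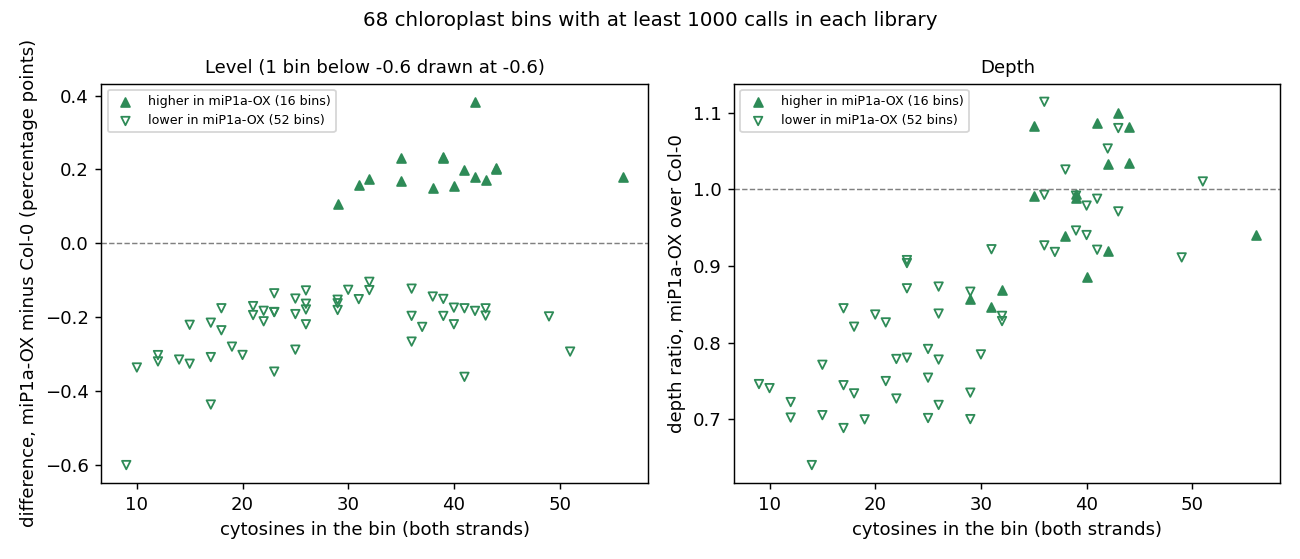
Difference in level, miP1a-OX minus Col-0, in percentage points (left) and ratio of miP1a-OX to Col-0 depth (right) against the cytosines on both strands, for the 68 chloroplast bins with at least 1000 calls; filled triangles are the 16 bins higher in miP1a-OX, open triangles the 52 lower ones. No bin with fewer than 28 cytosines lies above 0 on the left, and the depth ratio rises with the number of cytosines.

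The mitochondrial bins showed this in part. Over the 428 with at least 1000 calls, the number of cytosines had a Spearman rho of 0.37 with the depth ratio, whereas with the difference it was −0.23. The median depth ratio went from 1.19 in the 143 bins with the fewest cytosines to 1.31 in the 143 with the most. Higher bins numbered 22, 29 and 24 from the fewest to the most, so direction did not follow the number of cytosines there. Over the nuclear listed bins the rho was 0.19 with the depth ratio and −0.30 with the difference, the latter opposite in sign to the chloroplast value.

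Nuclear copies of organelle DNA were located by aligning the TAIR10.1 organelle genomes to the nuclear chromosomes, at an identity of at least 90% over at least 80 bases. Copies covered 73.8% of the mitochondrial and 11.8% of the chloroplast genome. Of the 280 kb of mitochondrial copies in the nucleus, 273 kb lay on chromosome 2, mostly in an insertion next to the centromere from 3239038 to 3509765 (TAIR10.1). Of chloroplast copies there were 17.7 kb, the longest of 3635 bases on chromosome 3 from 13537908 to 13541507 at 94.2% identity.

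The listed nuclear bins in the chromosome 2 insertion moved in the same direction as the mitochondrial bins, from a higher level. There were 235 of them among 2707 bins (8.68%), with a pooled level of 5.18% in Col-0 against 3.35% in miP1a-OX, and 20.9% were higher in miP1a-OX, against 17.8% of the mitochondrial bins. Their calls in miP1a-OX were 1.21 times and their methylated calls 0.784 times those in Col-0, beside 1.25 and 0.788 in the mitochondrial bins. Their median depth of 70.3-fold and 89.8-fold lay between the nuclear and the mitochondrial medians. The mitochondrial sequence in TAIR10.1 matched the cytosine number of 18 of the 477 listed mitochondrial bins (3.77%), so which of these have a nuclear copy was not tested and no mitochondrial sequence is shown.

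The nuclear bins that match the chloroplast genome mostly rose in miP1a-OX, as did most nuclear listed bins. The 16 listed ones had 8.60% in Col-0 against 13.0% in miP1a-OX, and 14 of 16 were higher. Over all nuclear listed bins 64.0% were higher, with pooled levels of 13.9% in Col-0 and 16.1% in miP1a-OX. Of the chloroplast bins, 52 of 70 were lower. Among the chloroplast bins, 8 had a nuclear copy and 62 had none. The 8 went from 0.312% to 0.125% with 7 lower, and the 62 from 0.287% to 0.185% with 45 lower. The ycf1-trnN spacer was the higher one of the 8. It matched chromosome 2 from 3496170 to 3496268 at 100% identity, inside the mitochondrial insertion, and it also matched the TAIR10.1 mitochondrial genome at 100%.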

How the data were processed

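Per the methods, the authors mapped the reads to TAIR9 with BSseeker2, for which the processing notes give version 2.1.0, computed levels with Methpipe and cut the genome into bins with bedtools. They deposited, without normalization, the counts of methylated calls and of unmethylated calls for each bin. The deposited level is a fraction of calls, and the deposited p-value comes from Fisher's exact test without adjustment. Only bins with p of at most 0.01 are listed. Bins start every 100 bases, and cytosines were read over 99 bases on both strands, in all contexts. Another 4 value columns per library were not used.

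Bins of ChrM and ChrC were taken, and the two-sided Fisher test was rerun over the whole table (scipy 1.17.1, pandas 2.3.3, numpy 2.4.6, python 3.11.15). The test was tried on simulated independent calls with planted shifts far larger than most organelle differences, which does not check it at the sizes listed here. P-values were adjusted by Benjamini-Hochberg over the 1196690 bins of TAIR10.1. Intervals are 95% Clopper-Pearson, and a level of 0 was given a limit of 3 calls. PCR duplicates were not marked in the table, so intervals cover counting error only. Nuclear copies were searched with blastn 2.17.0 and figures drawn with matplotlib 3.10.9. Genes and sequences come from RefSeq's TAIR10.1.

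Bins named were those past 0.4, the 5 largest increases and decreases with at least 50 calls, the 5 highest levels per library, the 5 longest runs with ties, the bins with the most and the fewest calls, and chloroplast genes by function. Members, lists and tests were chosen with earlier results of these data known. The alternatives varied the calls required, the difference, the summary, adjustment, depth and the bins included.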

Additional observations from a re-analysis of the deposited data

How the results depend on the processing

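No paired analysis was possible because there was 1 library of each genotype. With at least 10 calls per library, 17.9% of 476 mitochondrial bins were higher in miP1a-OX and the pooled difference was −0.997 points. That difference was −1.14 as the mean of the bins' levels, −1.25 as the median of the bin differences and −1.12 outside the 4 stretches, and the share of higher bins was 13.3% after Benjamini-Hochberg adjustment and 26.1% outside the stretches, a division chosen after seeing the data. The 3 mitochondrial bins past 0.4 became 0 with at least 50 or 200 calls, at a difference of 0.5, and when calls worth 1 fragment were taken away; a difference of 0.05, 0.1 and 0.2 gave 19, 11 and 7. The chloroplast pooled difference of −0.113 points turned to 0.186 as the mean of the bins' levels, where the shallow ycf1-trnN spacer counts as much as a deep bin, and was −0.176 as the median. The share of higher chloroplast bins fell from 25.7% to 0 of the 6 bins that kept p of at most 0.01 after removal of 1 fragment's calls, and 1 chloroplast bin passed a difference of 0.05 or 0.1. That removal takes more calls from bins with more cytosines. Among bins with at least 1000 calls, the higher ones held 29 to 56 cytosines and the lower ones 9 to 51. Leaving out the inverted repeat or bins with a nuclear copy kept both chloroplast values within their intervals.

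Depth limits what can be listed: the smallest listed difference was 0.104 points in chloroplast bins and 9.33 in the 12 mitochondrial bins with under 100 calls. Fisher's exact test treats calls as independent, while calls of 1 fragment are not, and the direction in each organelle has no replicate check.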
